A study of Homo sapiens with 12 samples.

Results

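The difference between 2 ovarian cancer cell lines in their RNA response to THZ1 250 nM was measured for every gene row that both lines' tables share. For each gene, the mean change from DMSO to THZ1 250 nM in KURAMOCHI (Ku) cells was subtracted from the mean change in COV362 (Cov) cells, and the result is called the line difference here. A positive line difference means that the transcript fell further in Ku cells or rose further in Cov cells, and a negative one means the opposite. All 23617 shared rows have a line difference, and the 14247 with a value above 1 FPKM in at least 1 library (active genes) were tested. FPKM is a read level scaled to transcript length and library size, here normalized by the authors to ERCC spike-ins, synthetic RNAs added in known amounts. Both lines are established human lines, untransduced in every group, with Ku cells grown in RPMI and Cov cells in DMEM. Each line has 2 libraries after 6 hr in DMSO (the vehicle), 2 after THZ1 50 nM and 2 after THZ1 250 nM, so 8 of the 12 libraries enter the comparison and the other 4 help to estimate the spread. Nothing in the labels ties the replicates to separate cultures, so the p-values measure only the spread between these libraries, and line, growth medium and table cannot be told apart.

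THZ1 is a small molecule that binds CDK7 covalently and also acts on CDK12 and CDK13. CDK7 is the kinase of the general transcription factor TFIIH and phosphorylates the tail of RNA polymerase II, and CDK12 and CDK13 phosphorylate that tail during elongation. The level of an mRNA reflects both its synthesis and its decay, and the mRNAs of immediate early genes, which growth factors and stress induce within minutes, are known to be short-lived.

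The tables of the lines were normalized separately, so each line difference was taken on the spike-in scale and again after each line's changes were centred on their median over active genes. On the log2(FPKM + 1) scale the Ku median change was -1.11 and the Cov median change -1.31, a shift of -0.20. Over the 16 combinations of single libraries the shift ranged from -0.34 to -0.014 (SD 0.11), and it was 0.020 when libraries were brought to equal median FPKM and 0.012 after median-of-ratios scaling. FPKM levels below are as deposited. Bringing 48 ERCC rows to the same DMSO level in both tables would multiply every Cov level by 1.578, so levels are not compared closely between the lines. On the spike-in scale the line difference was below 0 for 9209 active genes (64.6%) and above 0 for 5038 (35.4%).

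Genes were called at a limma adjusted p under 0.05 and a line difference beyond 0.5 on the log2 scale. On the spike-in scale 1321 genes (9.27%) were called positive and 2900 (20.4%) negative. After centring, 2159 (15.2%) were positive and 1401 (9.83%) negative. Those called in the same direction on both scales, 1321 positive (9.27%) and 1401 negative (9.83%), are described below, and "called" refers to them. Of the 1321 positive genes, 840 were themselves lower than DMSO in both lines, 357 were lower in Ku cells and not called in Cov cells, and 124 had another pattern. Of the 1401 negative genes, 638 were lower in both lines, 757 were lower in Cov cells and not called in Ku cells, and 6 had another pattern. Within-line calls used an adjusted p under 0.001 and a change beyond 0.5, and these found 9775 genes (68.6%) lower in Ku cells and 11967 (84%) lower in Cov cells, against 7 (0.0491%) and 15 (0.105%) higher.

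Many calls belong to genes at a low level in 1 line. A mean DMSO value under 1 FPKM in Cov cells was found for 415 of the positive genes, and under 1 FPKM in Ku cells for 544 of the negative genes. Such a gene has little room to fall on the log2(FPKM + 1) scale in that line. Of the 6921 genes with a mean DMSO value of at least 10 FPKM in each line, 438 (6.33%) were called positive and 459 (6.63%) negative. Each line gives 4 changes between single treated and DMSO libraries, and these did not overlap between the lines for 8445 active genes (59.3%). A line difference has 36 arrangements of treated and DMSO labels within the lines, so 0.0556 is the smallest two-sided p that exact permutation allows for 1 gene, and the calls depend on the spread that limma shares across genes.

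**Figure D1:**
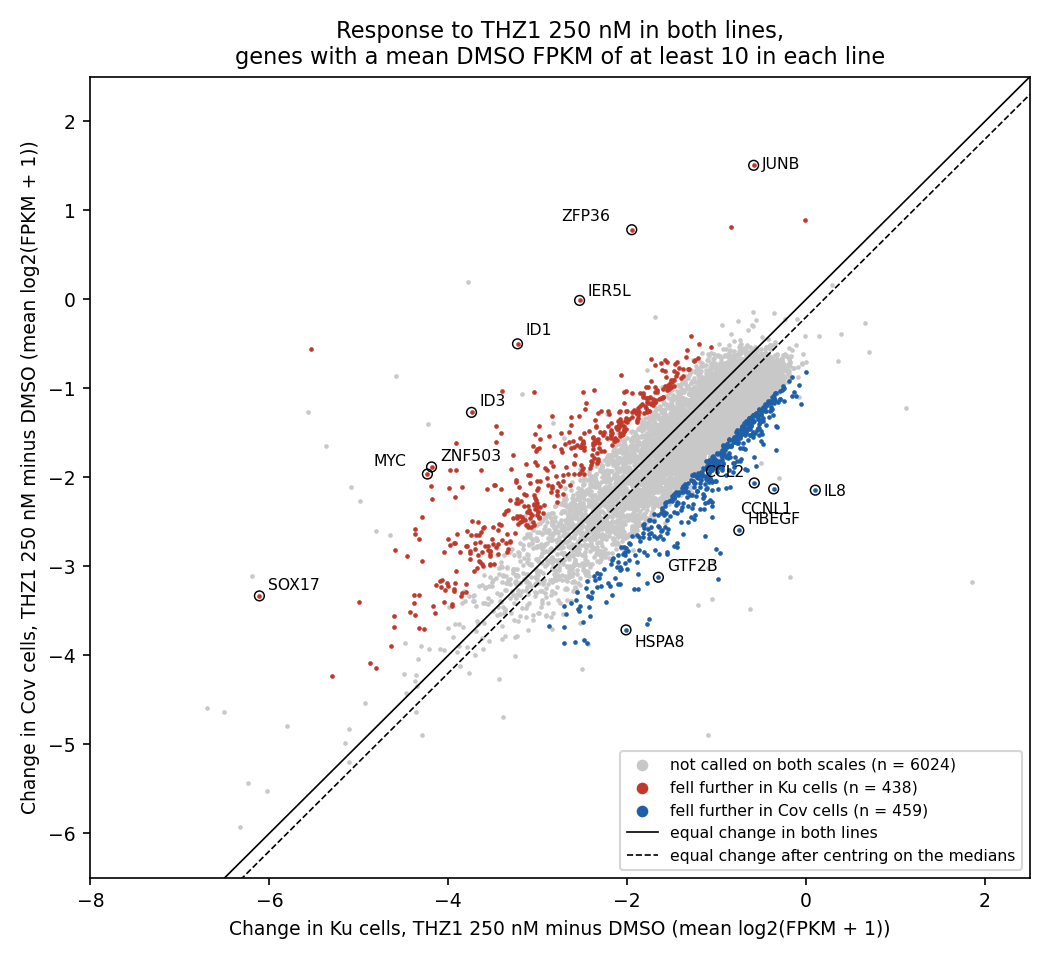
Change from DMSO to THZ1 250 nM in Ku cells (x axis) and Cov cells (y axis), as differences in mean log2(FPKM + 1), for the 6921 genes with a mean DMSO value of at least 10 FPKM in each line. Red points are the 438 genes called positive on both scales and blue points the 459 called negative, the solid line marks equal changes and the dashed line equal changes after centring. JUNB and ZFP36 lie above 0 in Cov cells and below 0 in Ku cells.

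The median FPKM of active genes lay between 10.9 and 14.4 in the 4 DMSO libraries and between 2.84 and 3.32 in the 4 libraries of 250 nM. Read counts are not in the tables, so depth is unknown. Across active genes without small RNA rows, the line difference computed from replicates 1 followed that from replicates 2 (Pearson's r = 0.827, Spearman's rank correlation = 0.793) over 13989 genes, which are not independent replicates. With the 258 small RNA rows included, r was 0.405. Of 10 ovarian serous markers, PAX8, SOX17, EMX2, MECOM, MSLN and WFDC2 were above 20 FPKM in DMSO in both lines. The other 4 were not, since MUC16 was at 0.166 FPKM in Ku and 5.71 FPKM in Cov DMSO libraries, ESR1 at 0.227 and 2.18 FPKM, FOLR1 at 1.896 and 4.395 FPKM, and WT1 at 56.8 ± 4.72 FPKM (SD, n = 2) in Ku cells and 0.653 ± 0.125 in Cov cells. Of 13 markers of leukocytes, endothelium and fibroblasts, 7 exceeded 1 FPKM in some library. PTPRC, CD3E, CD79A, LYZ, PECAM1 and DCN never did. ACTA2 was at 16.9 FPKM in Ku and 4.16 FPKM in Cov DMSO libraries, CDH5 at 8.23 and 7.75 FPKM, and COL3A1 at 8.58 and 0.663 FPKM. VWF was at 2.66 and 0.600 FPKM, COL1A1 at 2.53 and 3.17 FPKM, and CD14 at 1.31 and 0.625 FPKM. The summed FPKM of the 13 was 39.7 to 43.2 in Ku DMSO, 58.3 to 62.1 in Cov DMSO, 22.5 to 22.6 in Ku 250 nM and 27.8 to 31.0 in Cov 250 nM libraries, and COL1A2 was the only one called (negative). COL1A2 was at 0.127 FPKM in Ku and 42.2 FPKM in Cov DMSO libraries and made up most of the Cov sums.

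MYC, the transcription factor gene amplified in many ovarian cancers, had one of the largest positive line differences among well-expressed genes. In Ku cells MYC (chr8:128747680-128755197, hg19) measured 82.5 and 73.9 FPKM in DMSO and 3.11 and 3.30 FPKM at 250 nM. In Cov cells it measured 165 and 180 FPKM in DMSO and 43.6 and 43.5 FPKM at 250 nM. The FPKM ratio of DMSO to 250 nM was 24.4 for Ku and 3.97 for Cov cells. The line difference was 2.27 ± 0.11 (SE, limma adjusted p = 1.42e-06). Over the alternative settings tried, it stayed between 2.19 and 2.58.

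MCL1, an anti-apoptotic member of the BCL2 family, also fell further in Ku cells, by a smaller margin. It measured 142 and 124 FPKM in Ku DMSO libraries, 10.1 and 17.9 FPKM in Ku libraries of 250 nM, 171 and 196 FPKM in Cov DMSO libraries and 43.1 and 40.1 FPKM in Cov libraries of 250 nM. Its treated Ku replicates differed more than those of MYC. The line difference was 1.10 ± 0.29 (limma adjusted p = 0.0171), and the call was lost without replicate 1 of Cov DMSO (adjusted p = 0.053) or of Cov 250 nM (adjusted p = 0.05).

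The targets of THZ1 and 3 other genes fixed for description were not called. The line difference was -0.15 ± 0.20 for CDK7, 0.07 ± 0.18 for CDK12 and -0.31 ± 0.17 for CDK13. CDK7 measured 26.3 and 19.5 FPKM in Ku DMSO libraries and 3.49 and 3.22 FPKM at 250 nM, against 44.7 and 47.4 FPKM and then 7.18 and 6.45 FPKM in Cov cells. Its FPKM ratio of DMSO to 250 nM was 6.83 for Ku and 6.76 for Cov cells. The sign of the line difference turned for CDK7 (0.058 and 0.087) after the 2 scalings named above and without replicate 2 of Ku DMSO (0.057). That of CDK12 turned after the Cov table was rescaled on ERCC rows (-0.039) and without replicate 1 of Ku DMSO (-0.090). PVT1, the long non-coding RNA gene beside MYC, differed by -0.35 ± 0.19, BRCA1 by 0.16 ± 0.15 and BRCA2 by -0.48 ± 0.21. On the spike-in scale alone, BRCA2 passed the limits as negative when the Cov table was rescaled on ERCC rows (-0.78, limma adjusted p = 0.0263). Without that rescaling its centred value was -0.29 (limma adjusted p = 0.338).

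The 12 largest positive line differences among genes with at least 10 FPKM in DMSO in each line ran from 2.78 to 2.06. The first was that of SOX17, a transcription factor of the Müllerian epithelium (chr8:55370495-55373452). It measured 139 and 146 FPKM in Ku DMSO libraries and 1.06 and 1.10 FPKM at 250 nM, and in Cov cells 113 and 121 FPKM and then 9.88 and 11.6 FPKM. Its FPKM fell further in Ku cells. The naming of all 12 required pair changes that did not overlap between the lines.

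ID1 and ID3 encode helix-loop-helix proteins that block basic helix-loop-helix factors. ID1 (chr20:30193086-30194318) measured 475 and 501 FPKM in Ku DMSO libraries and 52.1 and 50.5 FPKM at 250 nM. In Cov cells it measured 154 and 177 FPKM in DMSO and 108 and 127 FPKM at 250 nM, so that the order of the deposited levels turned over. ID3 went from 250.3 and 250.5 FPKM to 17.8 and 17.9 FPKM in Ku cells and from 93.9 and 98.6 FPKM to 35.8 and 43.1 FPKM in Cov cells. The line difference was 2.73 ± 0.13 for ID1 (limma adjusted p = 1.42e-06) and 2.47 ± 0.14 for ID3 (adjusted p = 2.76e-06).

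IER5L, a single-exon gene, measured 28.2 and 28.0 FPKM in Ku DMSO libraries and 3.41 and 4.75 FPKM at 250 nM. In Cov cells its change was not called, with 27.2 and 29.4 FPKM in DMSO and 24.5 and 32.1 FPKM at 250 nM. IER5, an immediate early response gene, fell 12.5-fold in Ku cells and 2.12-fold in Cov cells. RHOB, a small GTPase, fell 24.8-fold and 3.39-fold, and CEBPD, a C/EBP transcription factor, 27.5-fold and 4.76-fold. ZNF503, a zinc finger repressor, changed by -4.19 in Ku cells and -1.88 in Cov cells on the log2 scale, and SOCS3, an inhibitor of cytokine signalling, by -3.98 and -1.92. That the Ku and Cov pair changes lay apart was a condition for listing these 6 genes, so it is not a result.

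In JUNB and ZFP36 the line difference came from opposite movements. JUNB encodes an AP-1 subunit (chr19:12902300-12904129). It measured 20.9 and 18.4 FPKM in Ku DMSO libraries and 11.0 and 14.7 FPKM at 250 nM, but 76.2 and 82.1 FPKM in Cov DMSO libraries and 205 and 250.0 FPKM at 250 nM. The rise in Cov cells was called and the Ku change of -0.59 was not. ZFP36 encodes tristetraprolin, which promotes decay of mRNAs with AU-rich elements (chr19:39897487-39900052). It went from 18.9 and 17.1 FPKM to 3.22 and 4.71 FPKM in Ku cells and from 10.5 and 10.9 FPKM to 18.4 and 19.9 FPKM in Cov cells.

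Only 3 active genes (0.0211%) were called in opposite directions within the lines, and in each the fall was in Ku cells and the rise in Cov cells. These were ZFP36, EGR1 and EID3. EGR1, a zinc finger transcription factor of the early growth response, measured 23.2 and 20.7 FPKM in Ku DMSO libraries and 2.03 and 3.02 FPKM at 250 nM. In Cov cells it measured 7.40 and 6.96 FPKM in DMSO and 12.1 and 12.6 FPKM at 250 nM. Its line difference, 3.42 ± 0.18 (limma adjusted p = 2.28e-06), was larger than any of the 12 above, and it misses that list because its mean DMSO level in Cov cells was 7.18 FPKM. EID3 was scarce, with 1.83 and 1.53 FPKM in Ku DMSO libraries and 0.787 and 0.645 FPKM in Cov DMSO libraries, and reached 4.89 and 4.90 FPKM at 250 nM in Cov cells. EID3 lies inside TXNRD1 on the same strand, and TXNRD1 measured 566 FPKM in Cov DMSO libraries, so reads of the 2 genes may be shared.

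The promoters of EGR1 and ID1 are shown for 2 genes with large positive line differences, beside that of IL8 (CXCL8), whose line difference was negative. Each run holds the 120 bases before the transcription start on the plus strand of GRCh38.p14, from RefSeq, and capitals mark TATAAA on either strand or a CArG box, the site of serum response factor.
EGR1, chr5:138465359-138465478: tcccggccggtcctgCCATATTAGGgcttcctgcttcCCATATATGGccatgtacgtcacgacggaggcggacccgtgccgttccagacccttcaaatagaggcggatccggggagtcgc
ID1, chr20:31605169-31605288: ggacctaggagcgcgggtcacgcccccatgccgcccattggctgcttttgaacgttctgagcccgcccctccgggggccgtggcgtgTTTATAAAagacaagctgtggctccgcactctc
IL8, chr4:73740449-73740568: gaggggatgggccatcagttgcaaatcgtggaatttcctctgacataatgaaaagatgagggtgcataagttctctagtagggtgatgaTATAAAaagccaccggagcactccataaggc
The share of promoters with each motif is given as a description, without a test. In windows from 250 bases before to 50 after the start, TATAAA was found in 6.21% of 354 positive, 5.04% of 377 negative and 4.63% of 4881 uncalled genes with at least 10 FPKM in DMSO in each line, and in 12% of all 27305 promoters in the RefSeq table. A CArG box was found in 0.847%, 1.33% and 1.11%, and in 1.29% of all promoters. TGACGTCA, the cyclic AMP response element, was found in 4.52%, 4.24% and 3.79% and in 1.98% of all promoters. CACGTG, the E-box bound by MYC and MAX, was found in 11.3%, 14.3% and 10.7% and in 7.43% of all promoters. Both strands were searched, and a match is not evidence that a factor binds.

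The largest negative line differences among genes with at least 10 FPKM in DMSO in each line ran from -2.25 to -1.47. IL8, the neutrophil chemokine CXCL8 (chr4:74606236-74609433), led them. It measured 75.8 and 62.2 FPKM in Ku DMSO libraries and 74.8 and 72.8 FPKM at 250 nM, and went from 130 and 151 FPKM to 35.4 and 27.0 FPKM in Cov cells. IL8 thus held its level in Ku cells while the median gene fell there. Its line difference was -2.25 ± 0.23 (limma adjusted p = 0.000109).

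HBEGF, a ligand of the EGF receptor, went from 29.5 and 28.2 FPKM to 17.5 and 15.9 FPKM in Ku cells and from 17.9 and 17.8 FPKM to 2.04 and 2.20 FPKM in Cov cells. PTX3, a secreted pentraxin, fell 2.07-fold in Ku cells and 7.58-fold in Cov cells. The FPKM ratios of DMSO to 250 nM of CCL2, a monocyte chemokine, were 1.496 and 4.21, and its Ku change was not called.

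GTF2B, CLK1 and CCNL1 were also among the genes with the largest negative values. GTF2B, the general transcription factor TFIIB (chr1:89318316-89357627), measured 39.2 and 37.5 FPKM in Ku DMSO libraries and 11.7 and 11.3 FPKM at 250 nM, and 29.6 and 30.2 FPKM and then 2.72 and 2.38 FPKM in Cov cells. CLK1, a kinase of SR splicing factors, changed by -1.13 in Ku and -2.66 in Cov cells, and CCNL1, a cyclin linked to splicing, by -0.36 and -2.13. The Ku changes of CLK1 and CCNL1 were not called. HSPA8, the constitutive chaperone Hsc70, fell 4.05-fold in Ku cells, from 1967 and 1743 FPKM to 473 and 444 FPKM, and 13.3-fold in Cov cells, from 1278 and 1419 FPKM to 104 and 99.2 FPKM. The remaining 3 were SLC20A1, a phosphate transporter, FHL2, a LIM domain protein, and MICB, a ligand of the receptor NKG2D. They changed by -1.77, -1.76 and -1.01 in Ku cells and by -3.65, -3.59 and -2.81 in Cov cells, and the Ku change of MICB was not called.

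**Figure D2:**
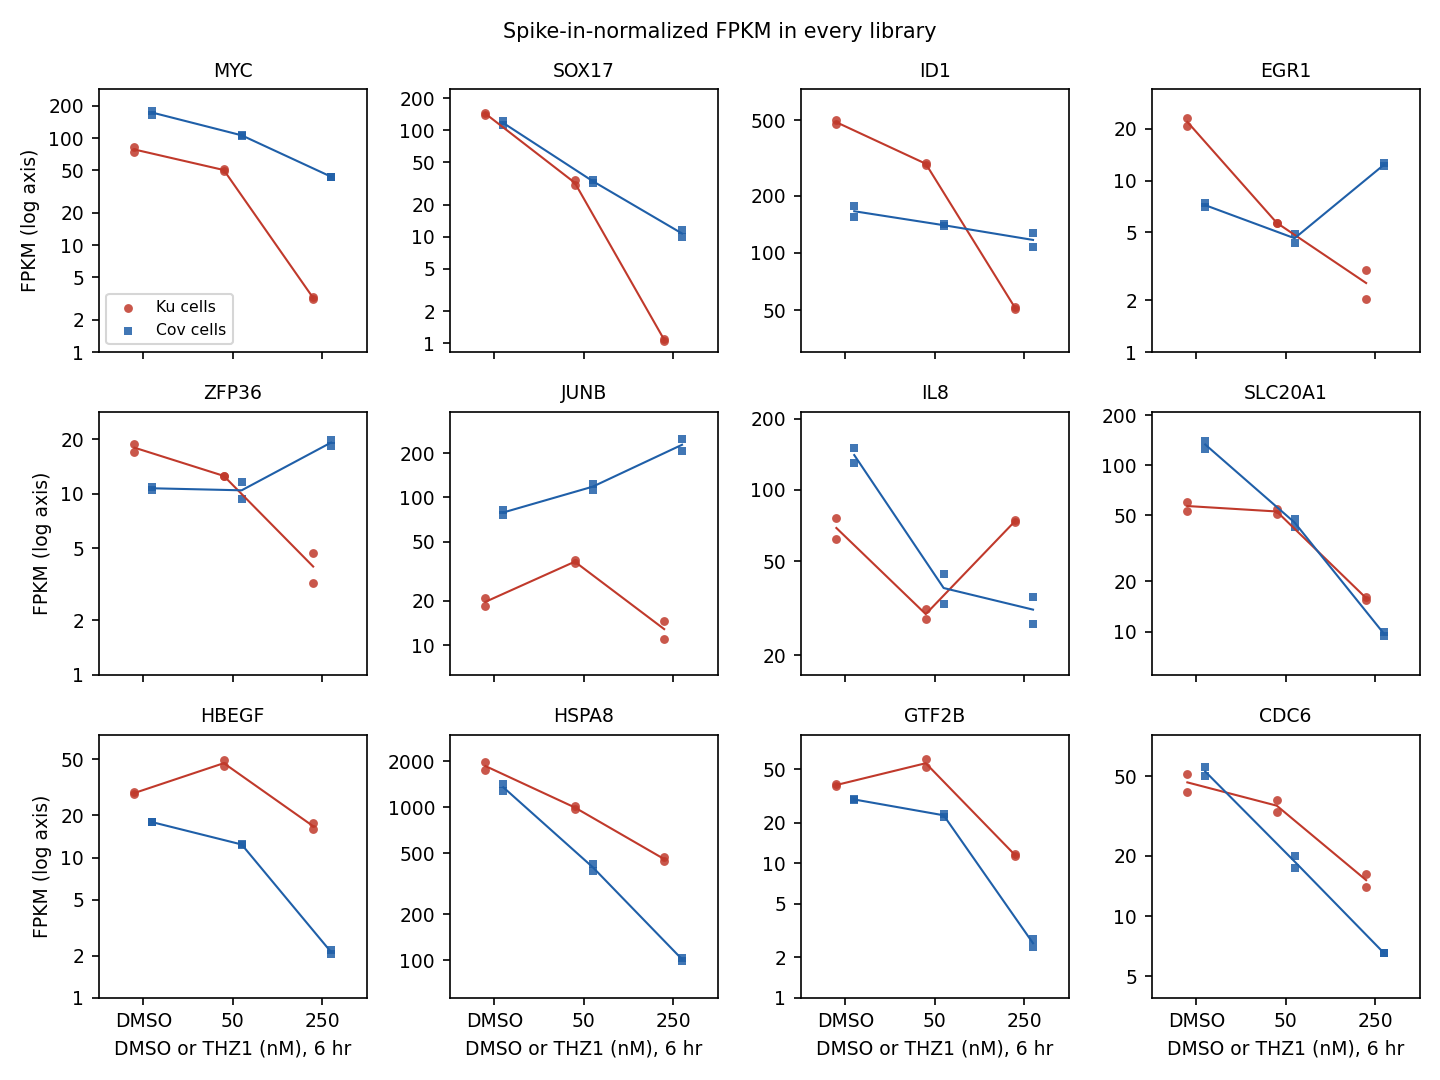
Spike-in-normalized FPKM (log axes, which differ between panels) of 12 genes in each of the 12 libraries by treatment, with Ku libraries as red circles, Cov libraries as blue squares and lines through the means of 2 libraries. MYC, SOX17 and ID1 end lower in Ku cells, EGR1, ZFP36 and JUNB end higher than DMSO in Cov cells, and IL8 and CDC6 end lower in Cov cells.

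Immediate early genes held the largest share of positive calls among the 30 lists examined. Of 23 active members, 13 were called positive and 4 negative, against 9.27% and 9.83% of all active genes, which are also the shares to set beside the counts of the lists that follow. The median line difference was 0.66, against -0.18 for all active genes. Among the 15 members with at least 10 FPKM in DMSO in each line, 10 were called, all of them positive, against 6.33% of all genes at that level. JUN, JUND, IER2, ZFP36L2, BTG2, DUSP1, FOS, FOSB and IER3 were positive beside EGR1, ZFP36, JUNB and IER5. IER2 changed by -0.84 in Ku and 0.81 in Cov cells, and IER3 by -0.0075 and 0.89. The negative members were KLF4 and KLF2, both under 1 FPKM in Ku DMSO libraries, MAFF (-1.21) and BTG1 (-0.85). BTG1 went from a mean of 5.905 FPKM to 0.412 FPKM in Ku cells and from 23.95 FPKM to 1.85 FPKM in Cov cells, so its FPKM ratio was larger in Ku cells and its negative sign rests on the pseudocount of 1.

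Of 12 feedback genes of the ERK pathway, 5 were positive, and 1, PHLDA1, was negative, with a median of 0.23. SPRY2, an inhibitor of receptor tyrosine kinase signalling, went from 57.9 and 53.1 FPKM to 1.45 and 2.39 FPKM in Ku cells and from 18.2 and 19.2 FPKM to 2.495 and 2.71 FPKM in Cov cells. DUSP6, a phosphatase of ERK, fell 25.8-fold in Ku cells and 7.99-fold in Cov cells, and SPRY1 changed by -4.09 and -3.17. The others were SPRY4 and ETV4. PHLDA1, at a mean of 2.59 FPKM in Ku DMSO libraries and 0.263 FPKM at 250 nM, also had the larger FPKM ratio in Ku cells, and was no longer called with a pseudocount of 0.1 or after scaling to equal medians. The SPRY1 call was lost when the Cov table was rescaled on ERCC rows (0.56, adjusted p = 0.0691).

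The list of 15 YAP and TEAD genes holds targets of these factors together with YAP1, the TEAD genes and their regulators. Of these 15 genes, 5 were positive and 1 negative, and the median was 0.09, with 8 above 0 and 7 below. CYR61 and CTGF, matricellular proteins, began at 354 and 322 FPKM and at 780 and 702 FPKM in Ku DMSO libraries and ended at 20.4 and 20.2 FPKM and at 60.0 and 57.7 FPKM. In Cov cells CYR61 went from 325 and 372 FPKM to 80.5 and 78.4 FPKM and CTGF from 54.5 and 60.5 FPKM to 14.3 and 14.8 FPKM. The line difference of CYR61 was 1.87 ± 0.12. AJUBA, AMOTL2 and TEAD3, itself a TEAD factor, were the other positive members, and F3, tissue factor, was the negative one (-1.38 ± 0.21). The positive count was 3 with the Cov table rescaled and without replicate 1 of Ku DMSO.

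The list of TGF-beta and ID genes split, with 7 of 23 positive and 3 negative. ID4 was positive beside ID1 and ID3 (2.03 ± 0.13), as were SMAD9, TGIF1, TGIF2 and TGFB1. SMURF2 and SMAD3 were among the negative members. The negative count was 2 without replicate 1 of Ku DMSO. Of 18 genes of the p53 response, 7 were positive and 2 negative. BTG2, an antiproliferative gene, measured 39.9 and 33.3 FPKM in Ku DMSO libraries and 0.694 and 0.934 FPKM at 250 nM, and 10.5 and 10.7 FPKM and then 1.17 and 0.757 FPKM in Cov cells. PLK2, a polo-like kinase, fell 24.6-fold in Ku cells and 11-fold in Cov cells. FAS, the death receptor, was negative, changing by -1.69 in Ku and -2.82 in Cov cells, as was TNFRSF10B. GADD45B, PLK3, SESN1, ZMAT3 and BBC3 were the other positive members. The negative count of the p53 list was 1 without replicate 1 of Ku 250 nM, replicate 2 of Cov DMSO or either library of Cov 250 nM. The positive count was 4 with a pseudocount of 0.1 and after scaling to equal medians.

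NF-kB targets and chemokines divided between the directions, with 5 of 21 positive and 8 negative. NFKBIA, which encodes the inhibitor IkB-alpha, went from 149 and 129 FPKM to 8.001 and 8.61 FPKM in Ku cells and from 95.6 and 102 FPKM to 26.2 and 24.8 FPKM in Cov cells, a line difference of 1.995 ± 0.12. CXCL2 (2.47), TNF (1.97), CXCL3 (1.295) and CXCL1 (0.74) were positive as well, and TNF and CXCL2 changed by 2.28 and 1.46 in Cov cells and by 0.31 and -1.02 in Ku cells. The negative members were IL8, CCL2, CCL20, ICAM1, NFKB1, NFKB2, TNFAIP3 and BIRC3, so that chemokines of the CXC family stood on both sides. BIRC3 (-3.02) had a mean of only 0.921 FPKM in Ku DMSO libraries, which leaves it little room to fall there. Of the 13 members with at least 10 FPKM in DMSO in each line, 7 were negative and 2 positive, with a median of -0.74.

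S phase genes held more negative than positive calls. Of 43 members, 14 were called negative and 1 positive, against 9.83% and 9.27% of all active genes, with a median of -0.53. All 14 were among the 40 members with at least 10 FPKM in DMSO in each line, against 6.63% of all genes at that level. CDC6, a licensing factor of replication origins, went from 51.4 and 41.7 FPKM to 16.2 and 14.1 FPKM in Ku cells and from 49.9 and 55.7 FPKM to 6.55 and 6.52 FPKM in Cov cells. GMNN, the licensing inhibitor geminin, fell 2.68-fold in Ku cells and 5.87-fold in Cov cells. CCNE2, cyclin E2, changed by -1.92 and -3.25, and MCM4 and MCM6, subunits of the replicative helicase, had line differences of -1.06 and -0.9957. E2F8, the positive member, was at 12.3 FPKM in Ku DMSO libraries and 0.106 FPKM in Cov DMSO libraries. At an adjusted p under 0.001, 1 S phase gene remained negative.

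G2/M phase genes did not lean to a side, with 6 of 54 positive and 7 negative and a median of -0.24. CDK1, the mitotic kinase, had a line difference of -1.22 ± 0.19, and TTK, a kinase of the spindle checkpoint, of -1.16 ± 0.20. PSRC1, a spindle protein, went the other way (0.96 ± 0.17), as did CDC20, CENPA, CDCA3, CKS2 and RANGAP1. The negative count was 4 without replicate 1 of Ku 250 nM, either library of Cov DMSO or replicate 2 of Cov 250 nM, and the positive count was 4 without replicate 1 of Ku DMSO.

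Interferon response genes had the largest share of negative calls, 16 of 25, with 1 positive and a median of -0.97. Of the 10 members with at least 10 FPKM in DMSO in each line, 3 were negative and 1 positive, with a median of -0.29. They also differed in level before treatment, with a median DMSO value of 6.97 FPKM in Ku cells and 52.6 FPKM in Cov cells, and 5 of the 16 were under 1 FPKM in Ku DMSO libraries. MX1, a dynamin-like antiviral GTPase, measured 9.89 and 4.80 FPKM in Ku DMSO libraries, 2.30 and 2.48 FPKM at 250 nM, and 97.2 and 110 FPKM and then 16.1 and 14.8 FPKM in Cov cells. IFIT1 fell 5.67-fold in Ku cells and 8.92-fold in Cov cells, and DDX58, the RNA sensor RIG-I, 5.45-fold and 12.3-fold. For the 7 negative members whose group means all reached 1 FPKM, the FPKM ratio was larger in Cov cells in all 7. The negative count was 9 with a pseudocount of 0.1, where IFIT1 was no longer called (-0.80, adjusted p = 0.0824), and 9 without replicate 2 of Cov 250 nM. After scaling to equal medians it was 10, with 3 positive. IRF1 was the positive member (0.70 ± 0.22, limma adjusted p = 0.0362), a call lost with a pseudocount of 0.1, with the Cov table rescaled and without any of 5 libraries in turn.

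**Figure D3:**
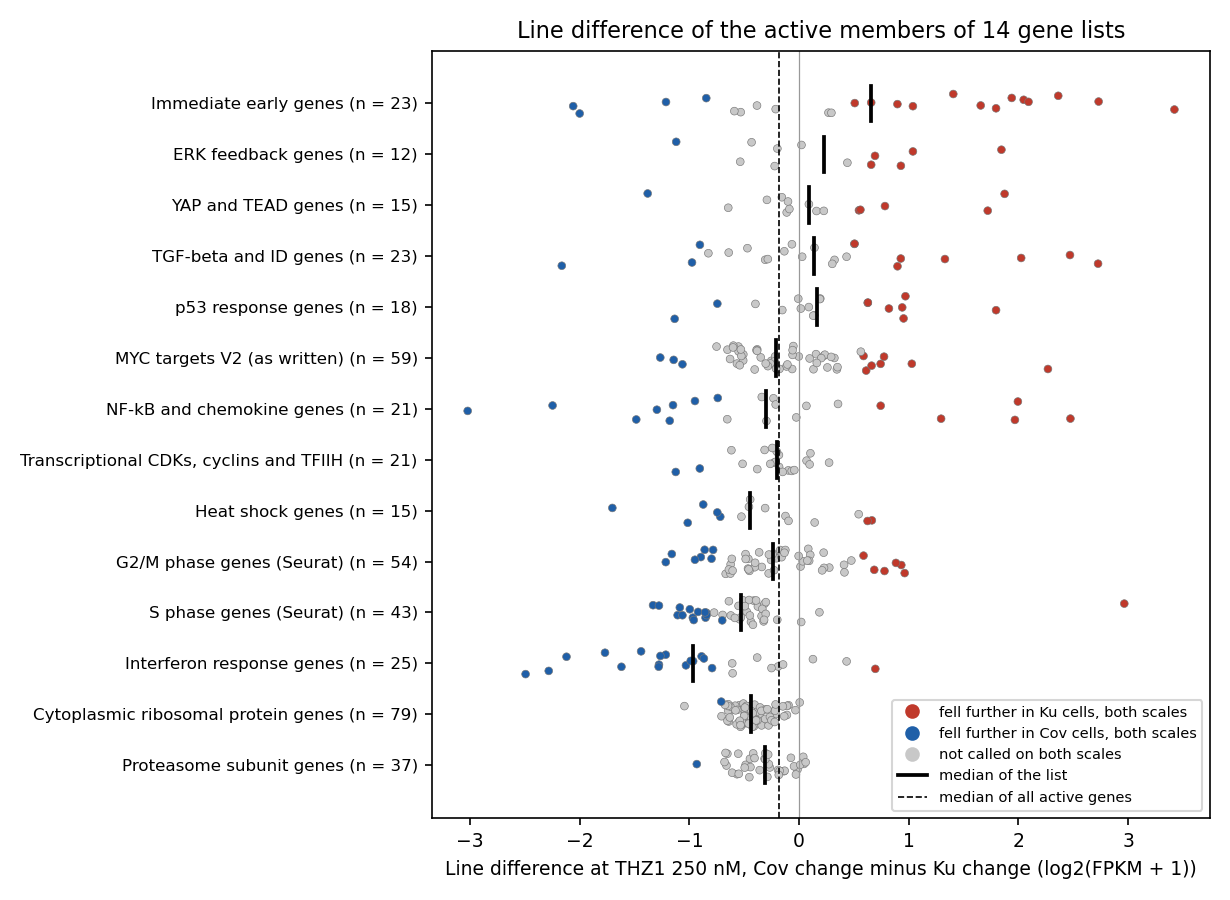
Line difference at THZ1 250 nM (x axis, Cov change minus Ku change in log2(FPKM + 1)) of each active member of 14 gene lists, with members called on both scales in red (positive) or blue (negative), list medians as black bars and the median of all active genes as a dashed line. Immediate early genes reach from -2.06 to 3.42 with a median of 0.66, and the medians of S phase and interferon response genes lie at -0.53 and -0.97.

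Heat shock genes, a list of chaperones, co-chaperones and the transcription factors HSF1 and HSF2, had 5 negative and 2 positive calls of 15, against 9.83% and 9.27% of all active genes, and a median of -0.45. DNAJA1 and HSPA4, partners of the HSP70 and HSP90 systems, had line differences of -1.02 ± 0.14 and -0.87 ± 0.16, and HSPH1 and HSP90AA1 were negative beside HSPA8. DNAJB1 (0.66) and HSF1 (0.62) were positive. The negative count was 2 without replicate 1 of Ku 250 nM and 3 with the Cov table rescaled, and without replicate 2 of Cov 250 nM 3 were negative and 1 positive.

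Among 59 MYC targets, 7 were positive and 3 negative, with a median of -0.21. GNL3 and WDR43, nucleolar proteins, were negative with MCM4 (-1.14 ± 0.17 and -1.27 ± 0.16), and PLK1, PPAN, NOP16, GRWD1, DUSP2 and SLC29A2 were positive beside MYC itself. Without replicate 1 of Cov 250 nM, 5 were negative. In the MYC network of 11 active genes, MYC, MYCN and MNT were positive and the others were not called. MYCN was at a mean of 2.02 FPKM in Ku and 0.520 FPKM in Cov DMSO libraries. Of the 5 members with at least 10 FPKM in DMSO in each line, MYC was the only one called. The positive count of the network was 5 without replicate 1 of Cov 250 nM and after scaling to equal medians. The BCL2 family had 2 positive members, MCL1 and BBC3, and 4 negative ones, BID, BMF, BIK and BCL2A1. BIK and BCL2A1 were under 1 FPKM in Ku DMSO libraries. The negative count of this family was 2 without replicate 1 of Ku 250 nM or of Cov 250 nM. With 1 library left out, its positive count ran from 1 to 3. BID, a pro-apoptotic member, went from 29.5 and 26.8 FPKM to 20.7 and 19.7 FPKM in Ku cells and from 28.9 and 30.7 FPKM to 12.2 and 12.9 FPKM in Cov cells.

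Of 21 genes for transcriptional kinases, cyclins and TFIIH, 2 were called, both negative, or 1 without replicate 1 of Ku 250 nM or replicate 2 of Cov 250 nM. CCNT1, the cyclin of the elongation kinase P-TEFb, measured 10.1 and 7.89 FPKM in Ku DMSO libraries, 1.502 and 1.83 FPKM at 250 nM, and 21.0 and 22.4 FPKM and then 1.85 and 1.72 FPKM in Cov cells. CCNH, the cyclin of CDK7, had an FPKM ratio of DMSO to 250 nM of 1.56 in Ku cells, where the change was not called, and 3.05 in Cov cells, a line difference of -0.90 ± 0.17. Among 17 pausing and elongation factors, HEXIM1, an inhibitor of P-TEFb, was positive (1.51 ± 0.15). It went from 26.5 and 25.1 FPKM to 1.96 and 2.65 FPKM in Ku cells and from 19.3 and 20.3 FPKM to 6.35 and 6.17 FPKM in Cov cells. MEPCE, which caps the 7SK RNA, was positive too (0.75 ± 0.22, adjusted p = 0.0253), a call lost without any of 5 libraries in turn (adjusted p of 0.0562 to 0.0876), and ELL2 was negative. The negative calls were 2 without replicate 1 of Ku 250 nM or of Cov 250 nM.

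Of 20 cleavage and polyadenylation factors, CSTF3 was positive (0.96 ± 0.24) and CPSF7, FIP1L1 and XRN2 were negative. CPSF7 changed by -1.99 in Ku and -2.83 in Cov cells and FIP1L1 by -1.97 and -2.75. The negative count was 1 without replicate 2 of Cov DMSO or of Cov 250 nM, and the positive count was 2 without replicate 2 of Ku 250 nM. Homologous recombination and Fanconi genes had 1 positive member of 32, FANCF, and 1 negative, RAD52, with a median of -0.36. With 1 library left out, each count ran from 0 to 2.

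Receptor tyrosine kinases had 3 positive members of 24, EPHB4, FGFR3 and ROR2, and 3 negative, ROR1, DDR2 and MST1R. DDR2 and MST1R were under 1 FPKM in Ku DMSO libraries and ROR2 in Cov DMSO libraries, and EPHB4 was the only one called among the 9 members with at least 10 FPKM in DMSO in each line. The positive count was 5 without replicate 2 of Ku DMSO. EPHB4 went from 28.0 and 26.2 FPKM to 2.10 and 2.34 FPKM in Ku cells and from 23.0 and 24.1 FPKM to 5.56 and 6.06 FPKM in Cov cells. ROR1 had an FPKM ratio of 1.98 in Ku cells, where its change was not called, and 3.83 in Cov cells. Among 16 genes of the ATF4 stress response, CEBPB (1.35 ± 0.12) and ATF4 itself (0.58 ± 0.11) were positive, and ASNS, asparagine synthetase (-1.12 ± 0.15), and TRIB3 (-1.53) were negative.

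Of 10 serous ovarian markers, SOX17, WT1 and PAX8 were positive, and MUC16, under 1 FPKM in Ku cells, was negative. PAX8, the lineage transcription factor, went from 140.0 and 132 FPKM to 11.5 and 13.8 FPKM in Ku cells and from 120.3 and 128 FPKM to 16.4 and 17.3 FPKM in Cov cells. Its line difference of 0.52 ± 0.12 lay at the threshold of 0.5 and was under it without 4 libraries in turn (0.40 to 0.49) and with the Cov table rescaled (0.4978). Of 11 active epithelial genes 1 was positive and 3 were negative, and of 10 mesenchymal genes 2 were positive and 1 was negative. KRT19 was the positive epithelial gene (1.15 ± 0.13) and FN1, fibronectin, the negative mesenchymal one (-1.36 ± 0.16). FN1 went from 366 and 305 FPKM to 267 and 264 FPKM in Ku cells and from 20.9 and 25.2 FPKM to 6.34 and 6.52 FPKM in Cov cells. SNAI1 and ZEB2, the latter at a mean of 0.171 FPKM in Cov DMSO libraries, were positive. KRT7, CDH1 and ESRP1, each under 5 FPKM in Ku DMSO libraries, were negative. With 1 library left out, the epithelial positive count ran from 1 to 2. The mesenchymal positive count ran from 2 to 3 and the mesenchymal negative count from 1 to 2.

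The medians of 3 housekeeping lists lay below the overall shift of -0.20, with few members called. Of 79 cytoplasmic ribosomal protein genes, 78 had a line difference below 0 and the median was -0.44, or -0.24 after centring, but 1, RPS3A, was called (-0.71 ± 0.16). On the spike-in scale alone, 27 were negative, against 20.4% of all active genes. Without replicate 2 of Ku 250 nM, 7 were called negative, and without any of 6 other libraries in turn none was. Respiratory chain genes had a median of -0.39, or -0.19 after centring, and 2 negative calls of 81, ATP5F1 (-0.80 ± 0.13) and NDUFV2 (-0.73 ± 0.15), a count that ran from 1 to 7 with 1 library left out, 7 without replicate 2 of Ku 250 nM. Proteasome genes had a median of -0.31, or -0.11 after centring, and 1 call of 37, PSMD12 (-0.93 ± 0.14), or 3 without replicate 1 of Cov 250 nM. MSMO1 was the 1 of 22 cholesterol synthesis genes called (-0.75 ± 0.14), and none was called negative without replicate 1 of Ku DMSO, replicate 1 of Ku 250 nM or replicate 2 of Cov 250 nM. Of 19 genes of hypoxia and glycolysis, NDRG1 (-0.71 ± 0.13) and ANKRD37, under 1 FPKM in Ku DMSO libraries, were negative and ADM was positive, and the negative count was 0 without replicate 1 of Ku DMSO, replicate 2 of Cov DMSO or replicate 1 of Cov 250 nM. Of 42 active rows of replication-dependent histone genes, whose mRNAs mostly lack a poly(A) tail and are poorly captured here, HIST2H2BC, annotated as a pseudogene, and HIST2H3A were positive and HIST1H2BK negative. With 1 library left out, the positive count ran from 1 to 4 and the negative count from 1 to 2.

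Zinc finger genes with a ZNF symbol split, and the direction of the split depended on the setting. Of 455 active members, 54 were positive and 72 negative, but 60 were positive and 34 negative with a pseudocount of 0.1 and 76 and 38 after scaling to equal medians. With the Cov table rescaled, 33 were positive and 100 negative. With the fit repeated on genes with at least 10 FPKM in DMSO in each line, 14 of 69 ZNF genes were called, all positive, against 444 positive and 469 negative of all 6921. ZNF703, a transcriptional repressor, measured 21.1 and 19.3 FPKM in Ku DMSO libraries and 0.712 and 0.464 FPKM at 250 nM, and 6.68 FPKM in both Cov DMSO libraries and 0.825 and 1.05 FPKM at 250 nM. ZNF581 fell 39.5-fold in Ku cells and 6.81-fold in Cov cells. It overlaps ZNF580 and CCDC106 on the same strand, so its reads are uncertain.

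Large line differences also came from genes with a mean DMSO value under 1 FPKM in 1 line. WT1, a marker of serous cancer, LOC158376 and TMEM169 led the positive ones. WT1 went from 60.1 and 53.4 FPKM to 2.14 and 2.75 FPKM in Ku cells and from a mean of 0.653 FPKM to 0.159 FPKM in Cov cells, where the change of -0.51 was also called. DKK1, a WNT inhibitor, H3F3A, which encodes histone H3.3, and INHBA, an activin subunit, led the negative ones. DKK1 went from 72.0 and 74.6 FPKM to 1.23 and 0.846 FPKM in Cov cells and was at most 0.1205 FPKM in the Ku libraries of DMSO and 250 nM. INHBA went from 33.6 and 33.2 FPKM to 2.46 and 2.07 FPKM in Cov cells. H3F3A differed from these in that it rose in Ku cells, from 0.164 and 0.155 FPKM to 6.47 and 10.3 FPKM, a change of 2.99 that was called. Its Cov libraries measured 0.117 and 16.8 FPKM in DMSO and at most 0.1004 FPKM at 250 nM, and that change was not called (limma adjusted p = 0.112). H3F3A has near-identical copies and its Cov DMSO replicates lie far apart, so its value is uncertain.

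Called genes differed in structure, a property the comparison did not use. Of genes with at least 10 FPKM in DMSO in each line, 33.6% of the 131 with 1 exon in the canonical transcript were positive and 3.05% negative. For 594 genes with 2 to 3 exons the shares were 20% and 2.86%, for 2799 with 4 to 9 exons 6.32% and 5.14%, and for 3203 with 10 or more exons 2.84% and 9.02%. At this level the positive share thus fell at each step, and the negative share was higher in the 2 groups with more exons than in the 2 with fewer. Over all active genes the positive shares of the same 4 exon groups were 21.8%, 20.9%, 9.11% and 5.78%, and the negative shares were 8.82%, 11.5%, 9.45% and 10.4%, with no such order among the latter. At 10 FPKM or more in each line, positive genes had a median length of 9694 bases and 5 exons, and negative genes 42790 bases and 12 exons. Over all active genes these were 16520 bases and 5 exons, and 41160 bases and 9 exons. Across 5 length bins at the higher level, from shortest to longest, the positive share was 15.7%, 6.95%, 3.69%, 2.67% and 1.68%, and the negative share 2.24%, 6.02%, 7.99%, 9.86% and 8.1%. There the median changes in Ku and Cov cells were -2.25 and -1.75 for genes with 1 exon, against -1.27 and -1.54 for genes with 10 or more exons. Over all active genes the order turned, with -1.02 and -1.06 for genes with 1 exon and -1.11 and -1.37 for those with 10 or more. Among chromosomes at the higher level, 16% of 424 genes on chromosome 19 were positive and 0.943% negative, and 11.7% of 332 genes on chromosome 16 were positive and 3.92% negative. The widest gaps the other way were those of chromosome 18 (1.69% of 59 genes positive and 13.6% negative), chromosome 4 (2.49% and 13.4% of 201 genes), chromosome 21 (1.61% and 9.68% of 62 genes) and chromosome 10 (2.08% and 9.17% of 240 genes). Over all active genes chromosome 19 held 16.2% positive and 8.17% negative genes. No p is given for these shares, since genes are not replicates.

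**Figure D4:**
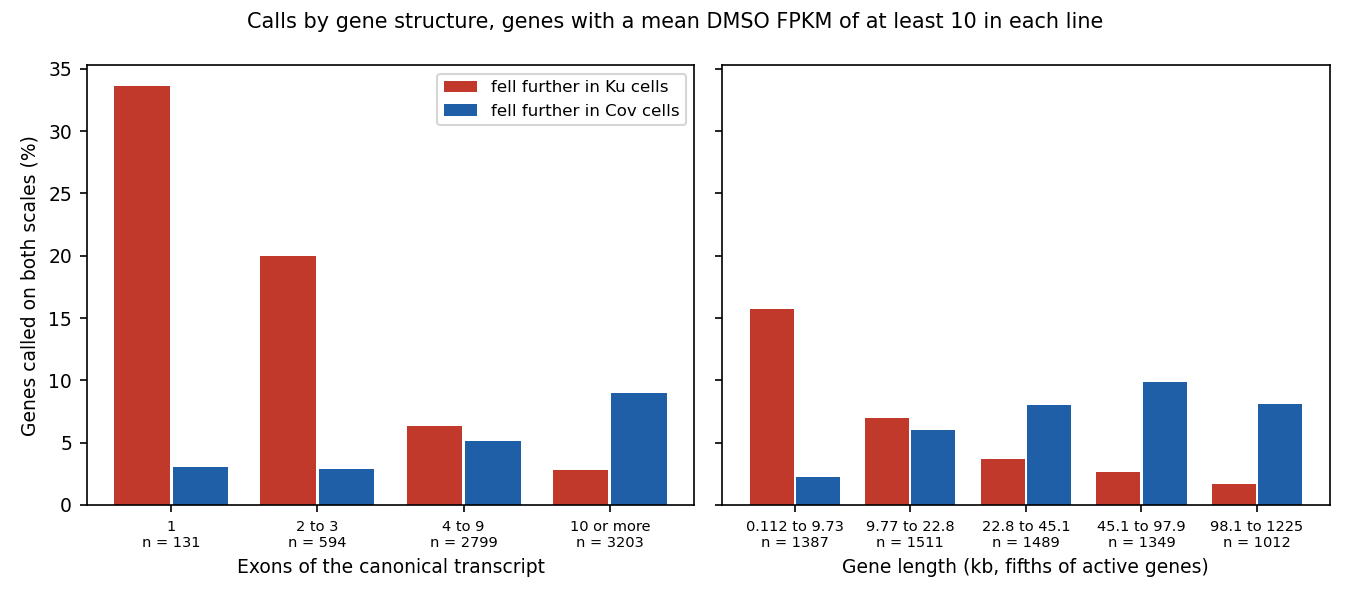
Share of genes called positive (red) and negative (blue) on both scales, in percent, by the number of exons of the canonical transcript (left) and by gene length in kb (right), for genes with a mean DMSO value of at least 10 FPKM in each line. From 1 exon to 10 or more, the positive share falls from 33.6% to 2.84% and the negative share goes from 3.05% and 2.86% to 5.14% and 9.02%.

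At THZ1 50 nM the line difference was computed the same way against the same DMSO libraries, so the doses are not independent, and the values are given side by side. The difference of the lines' median changes was -0.45 at 50 nM, and 334 genes (2.34%) were called positive on both scales and 481 (3.38%) negative. On the spike-in scale alone these were 337 (2.37%) and 5522 (38.8%). MYC had a line difference of -0.07 ± 0.11 at 50 nM and 2.27 ± 0.11 at 250 nM. In both lines MYC had changed about alike at 50 nM, by -0.63 in Ku cells and -0.70 in Cov cells. After centring, the values of MYC were 0.38 and 2.47. SOX17 went from 0.34 to 2.78, ID1 from 0.49 to 2.73, NFKBIA from 0.01 to 1.995 and JUNB from -0.30 to 2.09 on the spike-in scale. Centred, SOX17 went from 0.79 to 2.98, ID1 from 0.94 to 2.93, NFKBIA from 0.47 to 2.19 and JUNB from 0.15 to 2.29, so that at 50 nM the signs of MYC and JUNB depended on the scale. Of the 12 genes with the largest positive values, CEBPD (0.95) and ID3 (0.55) were called positive at 50 nM on both scales, as was EGR1 (1.24).

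Among the genes with the largest negative line differences, SLC20A1, MICB, FHL2 and HBEGF were called negative at 50 nM as well, and IL8 and PTX3 were not. On the spike-in scale SLC20A1 had -1.43 at 50 nM and -1.88 at 250 nM, MICB -1.41 and -1.80, FHL2 -1.28 and -1.84, and HBEGF -1.18 and -1.84. PTX3 had -0.49 and -1.89, and IL8 -0.67 and -2.25. The shift of the medians differs between the doses, and after centring the values were -0.98 and -1.68 for SLC20A1, -0.96 and -1.60 for MICB, -0.83 and -1.64 for FHL2, -0.73 and -1.645 for HBEGF, -0.038 and -1.69 for PTX3 and -0.22 and -2.05 for IL8. The centred values of the positive gene CEBPD were 1.40 and 2.29. HBEGF rose in Ku cells at 50 nM, by 0.69, and fell by 0.50 in Cov cells. IL8 changed by -1.18 in Ku cells at 50 nM and by 0.10 at 250 nM, and by -1.85 and then -2.14 in Cov cells. CDK7, CDK12 and CDK13 had line differences of -0.70, -0.73 and -0.72 at 50 nM, where the median shift was -0.45, and were not called on both scales.

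**Figure D5:**
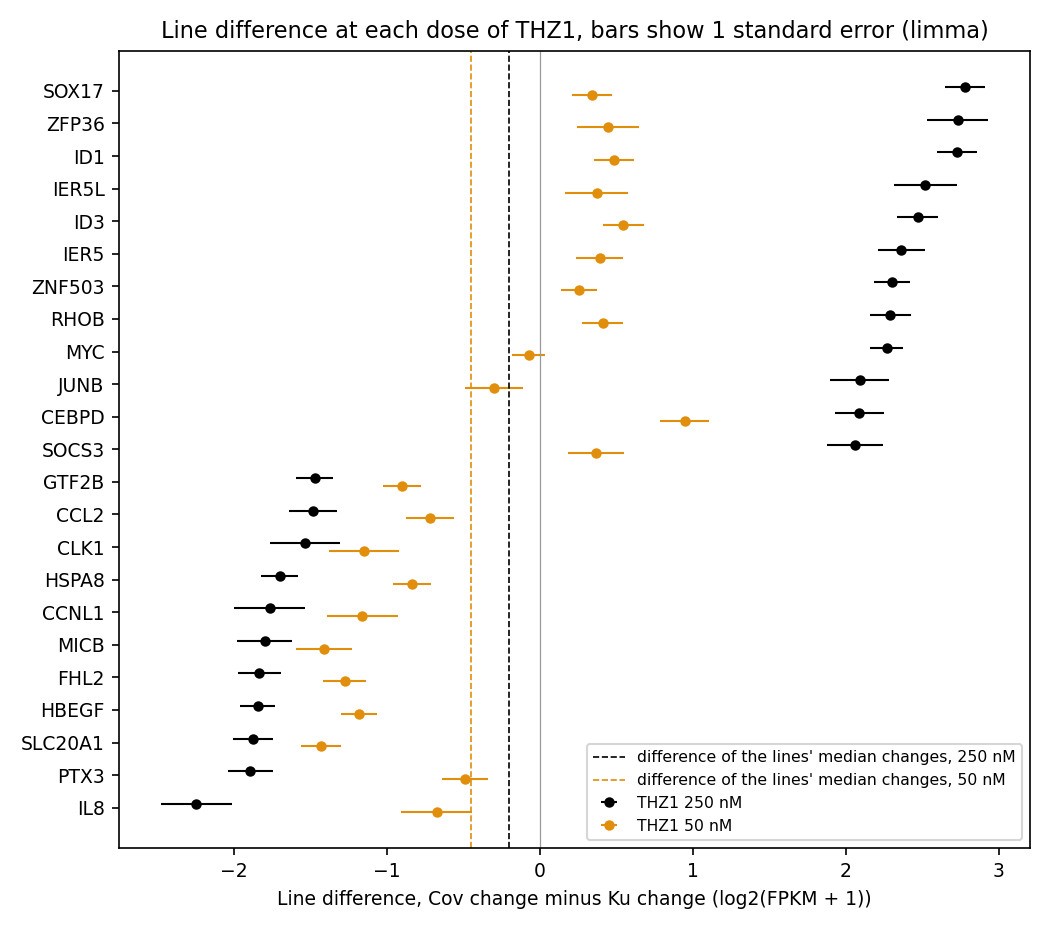
Line difference (x axis, Cov change minus Ku change in log2(FPKM + 1)) of the 12 genes with the largest positive and 11 of those with the largest negative values, at THZ1 250 nM (black) and 50 nM (orange), with bars of 1 standard error from limma and dashed lines at the difference of the lines' median changes for each dose. The genes were chosen on the 250 nM values, and both doses share the DMSO libraries. MYC moves from -0.07 at 50 nM, above the dashed line of that dose, to 2.27 at 250 nM.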

How the data were processed

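RNA was measured in 12 libraries of KURAMOCHI and COV362 cells, made with a stranded poly(A) kit from RNA normalized by cell count and mixed with ERCC spike-ins. Alignment by the authors was to hg19 (HiSat). They deposited cuffnorm FPKM values after spike-in normalization, with each line in its own file. Whether their quantification used strand is not given in the sources used here. FPKM are not counts, so a count test was not used, depth is unknown, and no counting interval is given. Of 23713 rows in each, 92 ERCC rows and 4 duplicated rows with date-like names were left out, and 0 value columns were unused.

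Values were transformed as log2(FPKM + 1), so fold changes of low genes are understated. The 6 groups of 2 libraries were fitted in 1 limma model (limma 3.58.1, R 4.3.3, eBayes with trend), and the line difference was tested two-sided with Benjamini-Hochberg adjustment over 14247 active genes, also after centring. Within-line calls came from separate fits. Cell cycle lists came from Seurat 5.3.0, and figures were drawn with matplotlib 3.10.9 and pandas 2.3.3 in Python 3.11.15. On simulated data for this comparison (14247 genes), 96 of 100 genes changed by 1 and 100 of 100 changed by 2 on the log2 scale were recovered, and 16 of 11257 unchanged genes were called. The changed genes were drawn only from genes well expressed in DMSO in both lines, and genes near the floor were left out of the unchanged ones. Noise was independent between libraries, without a scaling error of a whole library. The simulation thus does not cover calls of low genes or shifts of the medians.

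The members and gene lists were chosen with earlier results of these data known. Named by rule were 8 fixed genes and the 12 largest called line differences each way at 10 FPKM or more in DMSO in each line. For these 12 each way, the pair changes of the lines were also required not to overlap. Up to 3 called members per list at 5 FPKM or more were named too. So were genes called oppositely within the lines, and 3 genes each way under 1 FPKM in DMSO in 1 line. 1 gene that the rule names is not reported here. Other list members were named after their values were seen. Positions and exons come from the GENCODE annotation on GRCh37, which is hg19. Promoters come from RefSeq on GRCh38.p14, and 10797 of 13989 active genes outside the small RNA rows matched one. Of the 88 named genes, 21 are overlapped by another gene of the tables, 2 of them on the same strand. HSPA8, RPS3A, H3F3A and the histone genes have near-identical copies and are uncertain. Alternatives were other pseudocounts, filters, scalings, thresholds and fits, and each library left out.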

Additional observations from a re-analysis of the deposited data

Results flagged for a closer look

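The change at THZ1 250 nM differed between the lines for 81 of the 87 genes reported, by limma's test of the difference itself and on both scales. The rule that names most of these genes required the call, so their number is not a result. Values are line differences in log2(FPKM + 1), with the change in Ku cells subtracted from that in Cov cells.

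Positive values of 2 or more were those of LOC158376 (3.62), WT1 (3.56), TMEM169 (3.43), EGR1 (3.42), SOX17 (2.78), ZFP36 (2.73), ID1 (2.73), EID3 (2.59), IER5L (2.52), ID3 (2.47), IER5 (2.36), ZNF503 (2.30), RHOB (2.29), MYC (2.27), JUNB (2.09), CEBPD (2.09) and SOCS3 (2.06). Between 1 and 2 lay NFKBIA (1.995), CYR61 (1.87), SPRY2 (1.85), BTG2 (1.796), ZNF703 (1.75), ZNF581 (1.73), CTGF (1.72), HEXIM1 (1.51), CEBPB (1.35), EPHB4 (1.28), KRT19 (1.15), MCL1 (1.10), DUSP6 (1.04) and HIST2H2BC (1.02). Below 1 lay PLK2 (0.97), PSRC1 (0.96), CSTF3 (0.96), SPRY1 (0.93), MEPCE (0.75), ATF4 (0.58) and PAX8 (0.52).

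Negative values of -2 or beyond were those of DKK1 (-5.16), H3F3A (-5.01), INHBA (-3.33) and IL8 (-2.25). Between -2 and -1 lay PTX3 (-1.89), SLC20A1 (-1.88), HBEGF (-1.84), FHL2 (-1.84), MICB (-1.799), CCNL1 (-1.77), HSPA8 (-1.70), CLK1 (-1.54), CCL2 (-1.48), GTF2B (-1.47), MX1 (-1.44), F3 (-1.38), FN1 (-1.36), CCNE2 (-1.33), IFIT1 (-1.28), CDC6 (-1.28), WDR43 (-1.27), CDK1 (-1.22), TTK (-1.16), GNL3 (-1.14), FAS (-1.13), CCNT1 (-1.12), ASNS (-1.12), GMNN (-1.11), DDX58 (-1.03) and DNAJA1 (-1.02). Closer to 0 lay PSMD12 (-0.93), ROR1 (-0.92), CCNH (-0.90), HSPA4 (-0.87), CPSF7 (-0.83), ATP5F1 (-0.80), FIP1L1 (-0.78), MSMO1 (-0.75), HIST1H2BK (-0.75), NDUFV2 (-0.73), BID (-0.72), NDRG1 (-0.71) and RPS3A (-0.71). For negative genes the centred value lies nearer the limit of 0.5. It was -0.553 for MSMO1, -0.547 for HIST1H2BK, -0.534 for NDUFV2, -0.521 for BID, -0.513 for NDRG1 and -0.510 for RPS3A, all close to that limit.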

How the results depend on the processing

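The counts of genes called positive and negative depended on which genes were tested, on the threshold, on the scaling and on single libraries. With an FPKM above 10 in at least 1 library, 720 genes were positive on the spike-in scale and on both scales, 1219 were positive and 770 negative after centring, and 770 were negative on both scales. With a mean DMSO value of at least 10 FPKM in each line, 444 were positive and 1426 negative on the spike-in scale, 805 and 469 after centring, and 444 and 469 on both. Fewer genes were tested in both. At an adjusted p under 0.001 the counts were 356 and 547 on the spike-in scale, 569 and 332 after centring, and 356 and 332 on both. Beyond a line difference of 1 they were 404 and 613, 676 and 367, and 404 and 367. Centring alone changed the spike-in counts to 2159 and 1401. Scaling to equal medians gave 1743 negative genes on the spike-in scale and turned the median shift to 0.01983, and median-of-ratios scaling gave 1324 and 0.01157. The cause was not tested.

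With 1 library left out, 1030 to 1526 genes were positive and 1848 to 3762 negative on the spike-in scale, 1622 to 2150 and 1004 to 1432 after centring, and 1030 to 1526 and 1004 to 1432 on both scales, and the median shift was -0.284 to -0.1138. The lowest and highest negative counts on the spike-in scale were those without replicate 2 of Cov DMSO and without replicate 1 of Ku DMSO. The line difference turned for CDK7, to 0.05848 with equal medians, 0.0872 with median-of-ratios scaling and 0.05709 without replicate 2 of Ku DMSO (range with 1 library left out -0.3561 to 0.05709), and for CDK12, to -0.039 with the Cov table rescaled and -0.09048 without replicate 1 of Ku DMSO (range -0.09048 to 0.2277).

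The lines' libraries share replicate numbers. Deviations of same-numbered libraries had correlations from -0.00871 to 0.000348 (Ku) and from -0.0703 to 0.0282 (Cov), and the numbers were not taken to pair the libraries. With the replicate block, 1288 genes were positive and 2888 negative on the spike-in scale, 2109 and 1415 after centring, and the median shift was -0.199. Leaving out small RNA rows, chosen after seeing the data, gave 1405 positive and 1554 negative genes on both scales. Depth is unknown and groups have 2 libraries, which limits what small line differences the tests can call.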
